A study of Mus musculus with 16 samples.

Results

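The enrichment of RNA by astrocyte ribosome precipitation was compared between the striatum and the hippocampus of the same 4 mice, gene by gene. All 16 libraries of the series enter this comparison, and 13470 of 24060 gene labels per table were tested. The mice carried 1 copy of an Aldh1l1-creERT2 transgene and 1 copy of the Ribotag allele, were adult at postnatal day 63, and had an FVB background backcrossed with C57/Bl6N for 3 generations. Both sexes were used, and the labels do not give the sex of each animal. In Ribotag mice a hemagglutinin tag is placed on the ribosomal protein Rpl22 after Cre recombination, and the Aldh1l1 promoter directs the recombinase to astrocytes. Whole hippocampus and whole striatum of animals 970, 971, 974 and 977 each gave an input library, made from the cleared tissue lysate, and an IP library, made from RNA bound to tagged ribosomes. The 4 groups, hippocampal input, hippocampal IP, striatal input and striatal IP, thus had 4 libraries each, and all animals carried both alleles, so that no group lacks the tag. For every gene, enrichment is IP minus input on the log2(FPKM + 1) scale, where FPKM is fragments counted per kilobase of gene and per 1e6 fragments. The regional difference in enrichment is enrichment in striatum minus enrichment in hippocampus, with its SE. A positive value means more enrichment, or less depletion, in striatum.

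Astrocytes take up transmitter and potassium, supply neurons with metabolites and release factors that act on synapses, and those of different brain regions derive from different progenitor domains. Precipitation retains RNA bound to the tagged ribosomes, while the input holds RNA of all cells of the tissue. The striatum is built mostly of inhibitory projection neurons and the hippocampus of excitatory principal neurons with a zone of adult neurogenesis in the dentate gyrus, so the inputs of these regions have different neuronal RNA. The regional difference in enrichment equals the difference between the IPs minus the difference between the inputs, called the IP arm and the input arm below. A gene can reach the same value through either arm, and the arms are therefore given with each result. Because each library was made from whole tissue, fewer cells of a type and less RNA per cell cannot be told apart.

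Estimated depth, in units of 1e6 counted fragments, was lowest for striatal input (4.14 to 8.96) and higher for hippocampal input (9.03 to 12.2), striatal IP (13.9 to 21.8) and hippocampal IP (18.9 to 22.6). The summed level of 26 striatal projection neuron markers was 2879 to 3799 FPKM in striatal input and 136 to 142 in hippocampal input. That of 24 hippocampal principal neuron markers was 679 to 794 FPKM in hippocampal input and 55.6 to 102 in striatal input. The 30 astrocyte markers summed to 25823 to 30258 FPKM in hippocampal IP and 20415 to 27057 in striatal IP, against 2027 to 2702 and 1488 to 2285 in the inputs. Tissue and precipitation thus went with their labels in every group. RNA of neurons remained in the IPs: over 19 pan-neuronal genes the median IP level was 4.16%, 3.98%, 8.85% and 6.73% of input in the hippocampus of animals 970, 971, 974 and 977, and 6.55%, 8.81%, 29.5% and 12.7% in the striatum. The striatal share was the higher of the pair in each animal, and its part in the results below was not tested. Counts after subtracting that share of input from each IP are given below for several lists. For genes carried over at about that share, the subtraction leaves little in either IP. Their regional difference then nears the input arm with its sign reversed. The outcome for neuronal markers is thus largely set by the inputs and does not measure the part of carry-over. The kit does not mark strand, so reads of annotated antisense genes that overlap exons of Adra1d, Aldh1l1, Bdnf, Bhlhe40, Bhlhe41, Dlx1, Dner, Efhd1, Gfra1, Hhip, Kcnk2, Myoc, Neurod1, Nfix, Nid1, Plcb1, Plxna1, Ppp1r1b, Rspo3, Shh and Synm cannot be told apart from those of the named gene.

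Of the 13470 genes tested, 1599 were more enriched in striatum (11.9%) and 616 were more enriched in hippocampus (4.57%) at adjusted p under 0.05 in limma's moderated test. Together 16.4% of genes were called. The sign was the same in all 4 animals for 1579 of the 1599 and for 610 of the 616. The calls were made from these same animals and favour genes of 1 sign, so these counts are no separate support. After trimmed-mean scaling of the libraries the counts were 1126 and 715, so that the share of calls toward striatum fell from 72.2% to 61.2%. The median regional difference over all tested genes was 0.25 as deposited and 0.09 after scaling, and in single animals it was 0.13, 0.22, 0.50 and 0.10 in the order 970, 971, 974 and 977. The values of different animals correlated across genes with r between 0.41 and 0.64 in the 6 pairs of animals, where genes are not independent replicates. The counts fell when an animal was left out, by an amount that differed with the animal. Without animal 970 there were 729 and 300 calls, without animal 971 there were 647 and 246, without animal 974 there were 1177 and 599, and without animal 977 there were 1266 and 453. A set of 524 genes toward striatum and 212 toward hippocampus was called with all animals and without each in turn.

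The input arm was larger than the IP arm for 85.2% of the called genes and for 66.3% of all genes tested. It was the larger arm for 1381 genes more enriched in striatum and for 506 more enriched in hippocampus. The IP arm was larger for 218 and 110. Between the IPs alone 1446 genes differed (10.7%; 7.45% higher in striatum and 3.29% higher in hippocampus), and between the inputs 4870 (36.2%; 14.1% and 22%). IP and input differed for 71.3% of genes in hippocampus, with 18.5% enriched and 52.8% depleted, and for 64.8% in striatum, with 23.4% enriched and 41.4% depleted. Genes that were enriched in both regions numbered 2167, of which 155 were more enriched in striatum and 127 more enriched in hippocampus, together 13.0%. Among 4988 genes depleted in both regions, 578 and 159 were called, together 14.8%. Enrichment in one region with depletion in the other, each passing its own test, was found for 112 genes toward striatum and 41 toward hippocampus. For 7276 genes (54.0%) the 95% interval of the regional difference lay within -1 and 1.

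**Figure D1:**
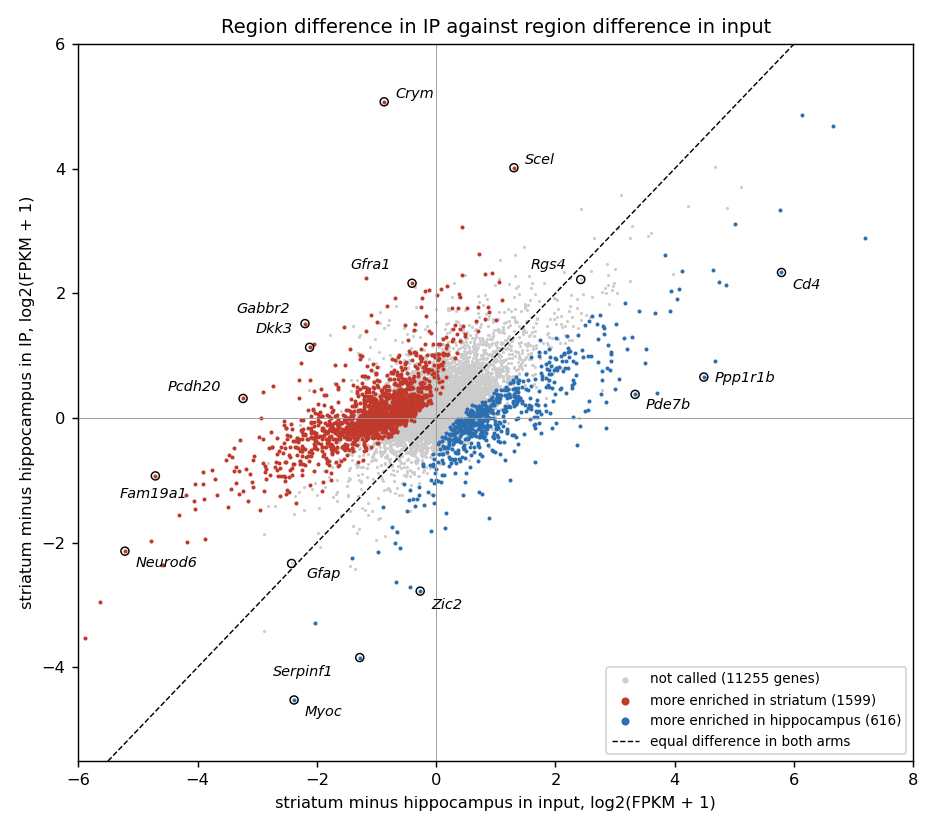
Region difference of every tested gene in the IPs (vertical axis) against that in the inputs (horizontal axis), both striatum minus hippocampus on the log2(FPKM + 1) scale, with 1 point per gene. Genes above the dashed line of equal arms were more enriched in striatum and genes below it more enriched in hippocampus; of the called genes, 85.2% had the larger difference in the inputs, and Crym lies at 5.07 in the IPs and -0.87 in the inputs.

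Crym had the largest regional difference of all genes named by the selection rule, and it was enriched in striatum and depleted in hippocampus. Crym encodes mu-crystallin, a protein that binds thyroid hormone and NADPH, and lies at chr7:120186380-120202111, minus strand (GRCm38). In hippocampal input its level was 85.7, 75.8, 96.7 and 98.7 FPKM in animals 970, 971, 974 and 977, the order used throughout. In hippocampal IP it was 3.89, 4.41, 10.9 and 9.38, below every hippocampal input. In striatal input it was 44.9, 46.7, 39.1 and 64.9, and in striatal IP 238, 317, 257 and 212. All striatal IPs were above all striatal inputs and above all hippocampal libraries, with no overlap. The regional difference was 5.94 ± 0.35 (adjusted p = 7.13e-08) and was 6.53, 6.56, 5.73 and 4.96 in the single animals. Its enrichment was 2.37 in striatum and -3.57 in hippocampus. The IP arm carried most of it, at 5.07, and the input arm was -0.87.

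Other genes with a larger IP arm fell into separate kinds. Gfra1, a receptor for glial cell line-derived neurotrophic factor at chr19:58235604-58455909, minus strand, had 21.8, 24.9, 19.0 and 16.2 FPKM in striatal IP and 2.49, 2.37, 2.84 and 3.00 in striatal input. In hippocampus its IP level was 3.80, 4.29, 3.30 and 3.64 and its input level 3.73, 3.66, 3.98 and 4.05. The striatal IPs stood above the other 12 libraries, which lay within a narrow range, and the regional difference was 2.57 ± 0.18 (adjusted p = 2.17e-07). Scel, encoding sciellin, a protein first known from the cornified envelope of skin, averaged 17.4 ± 3.57 FPKM in striatal IP and 3.68 ± 1.36 in striatal input, against 0.128 ± 0.0893 in hippocampal IP and 0.859 ± 0.327 in hippocampal input (SD, n = 4). Its regional difference was 2.71 ± 0.28 (adjusted p = 9.55e-06). Prss56, encoding a serine protease, averaged 8.13 ± 3.96 FPKM in striatal IP and 0.391 ± 0.273 in striatal input, and was listed at 0 in every hippocampal IP. Its regional difference was 2.63 ± 0.37 (adjusted p = 0.000152).

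The remaining 4 of these 8 genes, Tubb3, Stmn1, Rab33a and Cd24a, are known from neurons or their precursors. Tubb3 (a neuronal tubulin) had a regional difference of 2.62 ± 0.56 and Stmn1 (a regulator of microtubules) of 2.61 ± 0.39. Both were depleted in hippocampus (-3.37, adjusted p = 1.56e-06, and -2.99, adjusted p = 1.23e-07), and neither passed the test in striatum (-0.75, adjusted p = 0.105, and -0.38, adjusted p = 0.248). Stmn1 averaged 6.21 FPKM in hippocampal IP and 56.2 in hippocampal input, and 25.6 in striatal IP and 33.1 in striatal input. Rab33a, a small GTPase, gave 2.56 ± 0.46, and Cd24a, a surface protein of newborn neurons, 2.17 ± 0.41. In Tubb3, Stmn1 and Rab33a the values of animals 971 and 974, whose striatal inputs were the shallowest, were above those of animals 970 and 977. Tubb3 was called with all animals (adjusted p = 0.00454) but not without animal 971 (adjusted p = 0.0789). Without animals 971 and 974 together, Stmn1 was not called (adjusted p = 0.106), nor was Rab33a (adjusted p = 0.098).

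**Figure D2:**
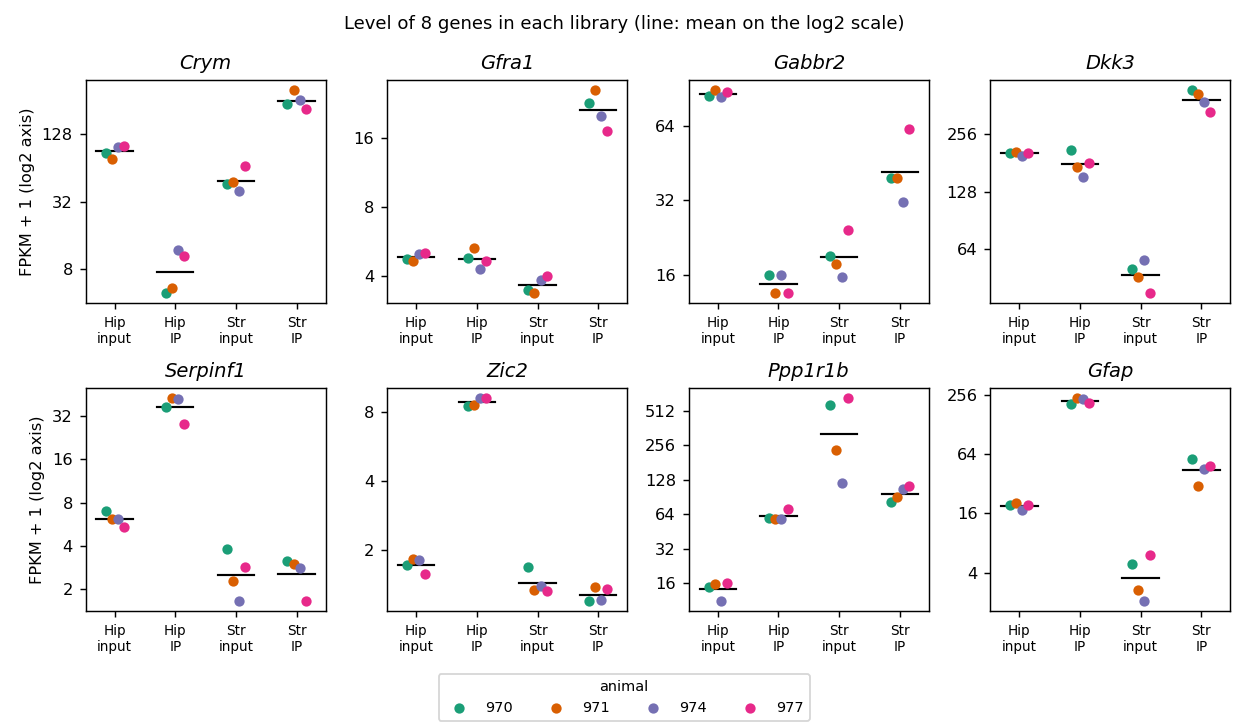
Level of 8 genes in each of the 16 libraries as FPKM + 1 on a log2 axis, by group, with 1 dot per animal and a line at the mean of the log2 values. The striatal IPs of Crym and Gfra1 and the hippocampal IPs of Serpinf1 and Zic2 stand apart from the other 12 libraries, while Ppp1r1b differs most between the inputs and Gfap differs alike in IP and input.

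Markers of progenitors and newborn neurons were called toward striatum alone. Of 14 listed genes 11 were tested, 8 rose in the regional difference and 0 fell, beside 11.9% and 4.57% of all genes tested, with a median of 1.02 against 0.25 over all genes. With scaling 6 of the 11 were called, and 6 held without each animal in turn. Top2a, a DNA topoisomerase of dividing cells, averaged 9.97 FPKM in striatal IP and 1.30 in striatal input, against 0.696 and 0.404 in hippocampus (regional difference 1.90 ± 0.31, adjusted p = 0.000641). Dlx1 and Dlx2, transcription factors of the subpallium, gave 2.03 ± 0.35 and 1.99 ± 0.27. Dlx2 averaged 3.57 FPKM in striatal IP and 0.788 in striatal input, and 0.0655 and 0.658 in hippocampus. Dcx, a microtubule protein of migrating neurons, gave 1.12 ± 0.20. The summed level of the whole list was 116 to 140.3 FPKM in hippocampal IP, 123 to 176 in striatal IP, 43.2 to 57.2 in hippocampal input and 47.9 to 53.2 in striatal input. The sums weigh the highest members most. Over the 11 tested members, median enrichment was -0.63 in hippocampus and 0.25 in striatum. Their median IP arm was 1.47 and their median input arm 0.06.

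Toward hippocampus, the genes with a larger IP arm included a secreted inhibitor of vessel growth, transcription factors, proteins of the cytoskeleton and matrix, and a mitochondrial calcium sensor. Serpinf1, encoding pigment epithelium-derived factor, lies at chr11:75409769-75422701, minus strand. Its level was 36.1, 41.5, 40.7 and 27.3 FPKM in hippocampal IP and 5.93, 5.18, 5.20 and 4.38 in hippocampal input. In striatum it was 2.12, 1.97, 1.83 and 0.665 in IP and 2.81, 1.28, 0.647 and 1.87 in input. The hippocampal IPs were above every other library and the striatal IPs and inputs overlapped, with a regional difference of -2.56 ± 0.34 (adjusted p = 9.83e-05). Zic2, a zinc finger transcription factor at chr14:122475435-122479852, plus strand, had 7.45, 7.57, 8.16 and 8.17 FPKM in hippocampal IP and 0.727, 0.834, 0.819 and 0.577 in hippocampal input. Its striatal IPs held 0.203, 0.386, 0.217 and 0.356, within or below the range of its striatal inputs, 0.704, 0.349, 0.406 and 0.338. The regional difference of Zic2 was -2.51 ± 0.15 (adjusted p = 7.66e-08), and its IP arm was -2.78.

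Cald1, Bgn and Olig2 were enriched in hippocampus and depleted in striatum, each passing both tests. Cald1, an actin-binding protein, averaged 30.1 ± 3.62 FPKM in hippocampal IP and 16.4 ± 0.610 in hippocampal input, and 3.71 ± 0.137 in striatal IP and 12.6 ± 5.39 in striatal input. Its regional difference was -2.28 ± 0.27 (adjusted p = 2.80e-05). Bgn, the matrix proteoglycan biglycan, gave -1.91 ± 0.29 (adjusted p = 0.000273) from 16.9 and 8.08 FPKM in hippocampal IP and input and 4.29 and 9.51 in striatal IP and input. Olig2, a transcription factor best known from the oligodendrocyte lineage and also present in some astrocytes, gave -1.69 ± 0.32 (adjusted p = 0.00204). Its means were 12.8 FPKM in hippocampal IP, 7.27 in hippocampal input, 4.76 in striatal IP and 10.5 in striatal input. Without animals 971 and 974 Olig2 was not called (adjusted p = 0.0749). Among 7 oligodendrocyte precursor markers 0 were called in either direction, beside 16.4% of all genes tested. Their summed level was 4.71 to 7.84 FPKM in hippocampal IP and 9.57 to 16.9 in striatal IP. The part of precursor cells in the difference of Olig2 was not tested.

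The last 3 genes of this kind were enriched in both regions, and more so in hippocampus. Efhd1, a calcium-binding protein of mitochondria, averaged 67.7 FPKM in hippocampal IP and 28.6 in striatal IP, although its input level was 11.2 in hippocampus and 19.8 in striatum (regional difference -1.99 ± 0.15, adjusted p = 5.81e-07). The arms of Efhd1 thus had opposite signs. Rtp1, a chaperone of odorant receptors, gave -1.96 ± 0.24 (adjusted p = 4.00e-05) with 8.55 FPKM in hippocampal IP and 0.558 in striatal IP. Myoc, encoding the secreted protein myocilin, gave -2.14 ± 0.45 (adjusted p = 0.00386) with 82.3 and 5.57 FPKM in hippocampal IP and input, against 2.75 and 0.232 in striatum. The call of Myoc depended on the pseudocount and on 1 animal. At a pseudocount of 0.1 its difference was -0.67 (adjusted p = 0.549), and without animal 971 it was -2.15 (adjusted p = 0.0569). Rtp1 was also not called at a pseudocount of 0.1, with a difference of -1.69 (adjusted p = 0.136).

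**Figure D3:**
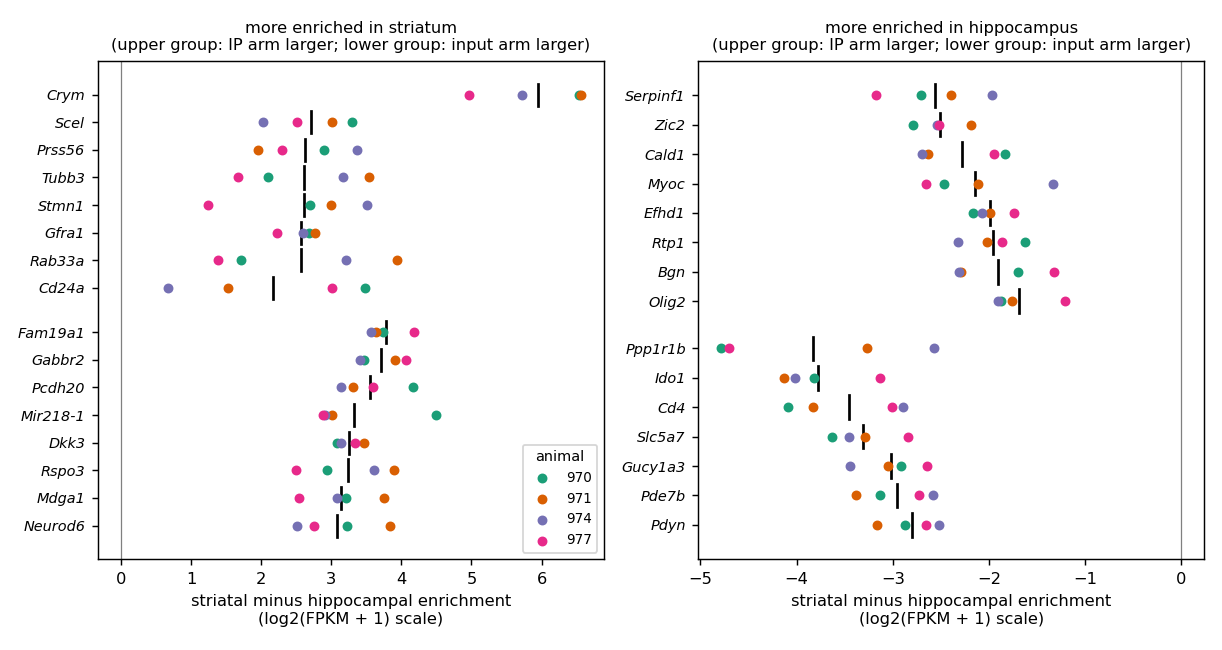
Striatal minus hippocampal enrichment of 31 genes named by size, in each of the 4 animals (dots) and in the pooled fit (bars), on the log2(FPKM + 1) scale. All dots of a gene lie on the same side of 0, which the selection rule required, and the spread among animals was wider for Stmn1, Rab33a and Cd24a than for Gfra1 or Zic2.

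The genes with a larger input arm toward striatum included neuronal and secreted factors that were high in hippocampal input. Gabbr2, a subunit of the metabotropic GABA receptor at chr4:46662305-46991873, minus strand, had 83.8, 88.9, 83.0 and 87.0 FPKM in hippocampal input and 14.9, 12.4, 14.9 and 12.5 in hippocampal IP. In striatum it had 18.0, 16.6, 14.6 and 23.3 in input and 38.3, 38.4, 30.5 and 61.2 in IP. Precipitation thus lowered it in every hippocampus and raised it in every striatum, and the regional difference was 3.71 ± 0.24 (adjusted p = 1.53e-07). Dkk3, a secreted protein of the Dickkopf family at chr7:112116017-112159057, minus strand, had 204, 206, 196 and 204 FPKM in hippocampal input and 211, 171, 152 and 180.0 in hippocampal IP. Its striatal inputs held 49.1, 44.6, 54.8 and 36.5 and its striatal IPs 438, 417, 378 and 334. Enrichment of Dkk3 was 3.06 in striatum (adjusted p = 3.01e-11), while in hippocampus IP and input overlapped (-0.19, adjusted p = 0.189), for a regional difference of 3.26 ± 0.18 (adjusted p = 4.87e-08). In both genes the arms had opposite signs: the IP arm was 1.51 for Gabbr2 and 1.13 for Dkk3, and the input arm -2.20 and -2.12.

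Rspo3, a secreted enhancer of Wnt signalling, followed the course of Gabbr2, with 9.70 ± 0.562 FPKM in hippocampal input, 3.04 ± 0.459 in hippocampal IP, 1.74 ± 0.978 in striatal input and 8.29 ± 1.35 in striatal IP. Its regional difference was 3.24 ± 0.31 (adjusted p = 4.09e-06). Pcdh20, a protocadherin, gave 3.55 ± 0.20, and Mdga1, a membrane protein that binds neuroligins, gave 3.14 ± 0.26. Fam19a1, a secreted neuronal peptide, gave 3.78 ± 0.31 with 47.4 FPKM in hippocampal input and 0.900 in striatal input. Neurod6, a transcription factor of pyramidal neurons, gave 3.08 ± 0.33. Its level was 75.4, 79.3, 83.8 and 81.9 FPKM in hippocampal input and 3.39, 2.79, 6.20 and 4.67 in hippocampal IP, and its mean was 1.26 in striatal input. Neurod6 was depleted in both regions, by less in striatum where little was present, and at a pseudocount of 0.1 it was not called (difference 1.76, adjusted p = 0.114).

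The remaining gene of these 8 was listed as Mir218-1, a microRNA hairpin inside the axon guidance gene Slit2 on chromosome 5. Its mature products are shown because the label stands for a hairpin and the libraries were not made for small RNA. Their sequences were taken from RefSeq (GRCm38.p6, plus strand, chr5:48223966-48223986 and chr5:48224005-48224026), with the seed, bases 2 to 8, in capitals.
mmu-miR-218-5p: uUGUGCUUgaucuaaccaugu
mmu-miR-218-1-3p: aAACAUGGuuccgucaagcacc
The label had 21.6, 14.8, 23.3 and 24.6 FPKM in hippocampal input and 0, 0.404, 1.93 and 0.926 in hippocampal IP, and 0, 1.58, 4.41 and 4.08 and 0, 0.840, 3.93 and 1.81 in striatal input and IP. Its regional difference was 3.33 ± 0.75 (adjusted p = 0.00652), and the call was lost without animal 971 (adjusted p = 0.0661) and at a pseudocount of 0.1 (adjusted p = 0.103). Slit2, a gene looked at after the values of the hairpin were seen, had 2.25 FPKM in hippocampal input, 0.623 in hippocampal IP, 0.458 in striatal input and 0.633 in striatal IP, with a regional difference of 1.16 ± 0.18 (adjusted p = 0.000293). Fragments of the hairpin, of the mature products and of the host transcript cannot be told apart in these tables.

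Markers of hippocampal principal neurons moved as a group in the same direction. Of 24 tested, 19 rose in the regional difference and 0 fell, 17 held without each animal in turn, and the median was 2.08. Of all genes tested, 11.9% rose. With scaling 20 rose and 1 fell, and at a pseudocount of 0.1 12 rose and 0 fell. The summed level of the list in hippocampus was 679 to 794 FPKM before and 49.1 to 97.1 after precipitation, and in striatum 55.6 to 102 and 15.6 to 33.8. The median IP arm was -0.43 and the median input arm -2.53, so the inputs carried the list's difference. Neurod1, a transcription factor of granule neurons, gave 3.04 ± 0.23, and C1ql2, a synaptic organizer of mossy fibres, 2.90 ± 0.19. Pan-neuronal genes showed a smaller shift, with 6 of 19 higher, 0 lower and a median of 0.71, and 2 of the 6 held without each animal in turn. Stmn2, a neuronal regulator of microtubules, was 1 of these, at 1.83 ± 0.25. The share of pan-neuronal RNA carried into the IPs, given above, moved in the same direction. With that share of input subtracted from each IP, 20 of the 24 principal neuron markers rose and 0 fell. Their median was then 2.74, near the reversed input arm, so this outcome was largely set by the inputs.

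Toward hippocampus, the genes with a larger input arm included Ppp1r1b, Slc5a7 and Pdyn, which are known from striatal neurons. Ppp1r1b encodes DARPP-32, the phosphatase inhibitor that integrates dopamine signals in projection neurons, and lies at chr11:98348404-98357796, plus strand. It had 573, 233, 118 and 656 FPKM in striatal input and 81.0, 89.5, 104 and 111 in striatal IP. In hippocampus it had 13.9, 14.7, 10.1 and 14.9 in input and 57.8, 57.3, 57.4 and 70.1 in IP. Every hippocampal IP was above every hippocampal input and every striatal IP below every striatal input, and the regional difference was -3.83 ± 0.54 (adjusted p = 0.000164). The striatal inputs of animals 971 and 974 were the lower of the group. Pde7b, a phosphodiesterase of cyclic AMP, and Gucy1a3, a subunit of the nitric oxide receptor guanylyl cyclase, followed the same course. Pde7b averaged 115 ± 9.55 and 27.5 ± 0.505 FPKM in striatal input and IP, and 10.5 ± 0.929 and 21.0 ± 2.34 in hippocampal input and IP (regional difference -2.96 ± 0.13, adjusted p = 5.38e-09). Gucy1a3 gave -3.02 ± 0.18 (adjusted p = 8.02e-08).

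Ido1, an enzyme of tryptophan breakdown, had 22.2, 28.4, 38.1 and 16.4 FPKM in striatal input and 0.669, 0.626, 1.34 and 0.985 in striatal IP, and its hippocampal means were 0.0163 in input and 0.00361 in IP. Every striatal input was above every other library, and the regional difference was -3.77 ± 0.27 (adjusted p = 4.29e-07). With so low a level in hippocampus, its difference is mainly its depletion in striatum, -3.79. Low hippocampal levels and depletion in striatum were also found for Cd4 (known as a T cell coreceptor, -3.46 ± 0.36), the choline transporter Slc5a7 (-3.31 ± 0.24) and the opioid precursor Pdyn (-2.80 ± 0.28). Hippocampal input held 0.319 FPKM of Slc5a7, 0.248 of Cd4 and 1.46 of Pdyn on average. In all, 94 of the 616 genes had both hippocampal means under 1 FPKM, and 237 of the 1599 had both striatal means under 1 FPKM. For those genes the comparison rests on 1 region.

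Of 26 striatal projection neuron markers, 16 fell in the regional difference and 0 rose, 12 held without each animal in turn, and the median was -1.88. Of all genes tested, 4.57% fell. Their summed level in striatum was 2879 to 3799 FPKM before and 254 to 578 after precipitation, against 136 to 142 and 72.5 to 89.8 in hippocampus, where Isl1 was listed at 0 in every input and IP and Slc35d3 in every IP. With scaling 18 fell, and with the pan-neuronal share subtracted 23 fell. The median after subtraction was -3.29, beside a median input arm of 3.58, so that count was largely set by the inputs. At a pseudocount of 0.1, 11 fell, 1 rose and the median was -0.75. The dopamine receptor gene Drd1a gave -2.57 ± 0.25 and the transcription factor Meis2 -1.87 ± 0.18. At a pseudocount of 0.1, Drd1a gave -1.17 (adjusted p = 0.0506). Interneuron markers went both ways: 5 of 13 were higher (Vip, Calb2, Cck, Nos1 and Htr3a) and Chat was lower. The shares over all genes tested were 11.9% and 4.57%. Without each animal in turn 5 and 1 held. With the pan-neuronal share subtracted 6 rose and 4 fell, and without animals 971 and 974 1 rose and 1 fell. Cck and Nos1 were not called at a pseudocount of 0.1 (adjusted p = 0.134 and 0.0753), and Cck, Nos1 and Htr3a were not called without animals 971 and 974 (0.0552, 0.145 and 0.0600). The neuropeptide gene Vip gave 2.03 ± 0.30 and was not called without animals 971 and 974 (adjusted p = 0.0778). Calb2, encoding the calcium buffer calretinin, gave 2.05 ± 0.18. Chat, the acetylcholine synthase gene of cholinergic interneurons, gave -2.07 ± 0.20 and was listed at 0 in every hippocampal IP.

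Astrocyte markers were enriched in both regions. Of 30 tested, 1 was called, beside 16.4% of all genes tested. For 22 of the 30 the 95% interval lay within -1 and 1, beside 54.0% of all genes tested. The median was 0.11, against 0.25 over all genes. Median enrichment of the list was 3.44 in hippocampus and 3.56 in striatum. Aldh1l1, the folate enzyme gene that drives the Cre line, gave 0.16 ± 0.27 (adjusted p = 0.723, 95% interval -0.42 to 0.74) from 7.52, 4.81, 4.07 and 5.08 FPKM in hippocampal input, 92.7, 85.0, 85.9 and 90.0 in hippocampal IP, 6.03, 3.55, 3.54 and 7.16 in striatal input and 109, 100.3, 78.4 and 85.2 in striatal IP. Rpl22, the tagged ribosomal protein, gave 0.35 ± 0.19 (adjusted p = 0.227, 95% interval -0.06 to 0.76). Aqp4, the water channel of endfeet, gave -0.64 ± 0.26 (adjusted p = 0.105) with all libraries and -0.64 (adjusted p = 0.0484) when the 4 per-animal differences were tested alone.

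The called astrocyte marker was Slc4a4, a sodium bicarbonate cotransporter. It had 20.8, 18.6, 19.7 and 16.7 FPKM in hippocampal input and 209.6, 219.9, 207 and 207 in hippocampal IP. In striatum it had 38.1, 44.7, 48.7 and 32.9 in input and 185, 166, 128 and 169.8 in IP. It was enriched in both regions, and less in striatum, with a regional difference of -1.46 ± 0.18 (adjusted p = 4.58e-05). The input arm was 1.07 (adjusted p = 8.73e-06), and between the IPs the difference of -0.39 did not pass the test (adjusted p = 0.0652).

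Gfap, the intermediate filament gene of astrocytes, shows the opposite case, a large region difference with none detected in enrichment. Its level was 18.4, 19.2, 16.2 and 18.7 FPKM in hippocampal input and 208, 236, 232 and 213 in hippocampal IP. In striatum it was 3.85, 1.69, 1.04 and 4.99 in input and 56.2, 29.5, 44.7 and 47.0 in IP. The regions did not overlap in either kind of library, the arms were -2.33 in IP and -2.42 in input, and the regional difference in enrichment was 0.09 ± 0.38 (adjusted p = 0.888, 95% interval -0.71 to 0.89). Genes called in both arms with the same sign and an interval within -1 and 1 numbered 212 that were higher in striatum and 100 that were higher in hippocampus. Rgs4, a regulator of G protein signalling, had arms of 2.22 and 2.42 and a regional difference of -0.20 ± 0.31. The phosphatase gene Ptpn5 (-0.01 ± 0.42) and the transcription factor gene Sp9 (0.27 ± 0.24) were also higher in striatum in both kinds of library. Toward hippocampus, Hsd11b1, an enzyme of glucocorticoid activation, had arms of -2.07 and -1.95 and a regional difference of -0.12 ± 0.27, Kcng4, a modifier of potassium channels, of -0.03 ± 0.23, and Gfra2, a receptor for neurturin, of 0.25 ± 0.30. When the pan-neuronal share of input was taken from each IP, Rgs4 had a difference of -2.42 (adjusted p = 8.68e-08), the size of its input arm. At a pseudocount of 0.1 Sp9 had 1.48 (adjusted p = 0.012).

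**Figure D4:**
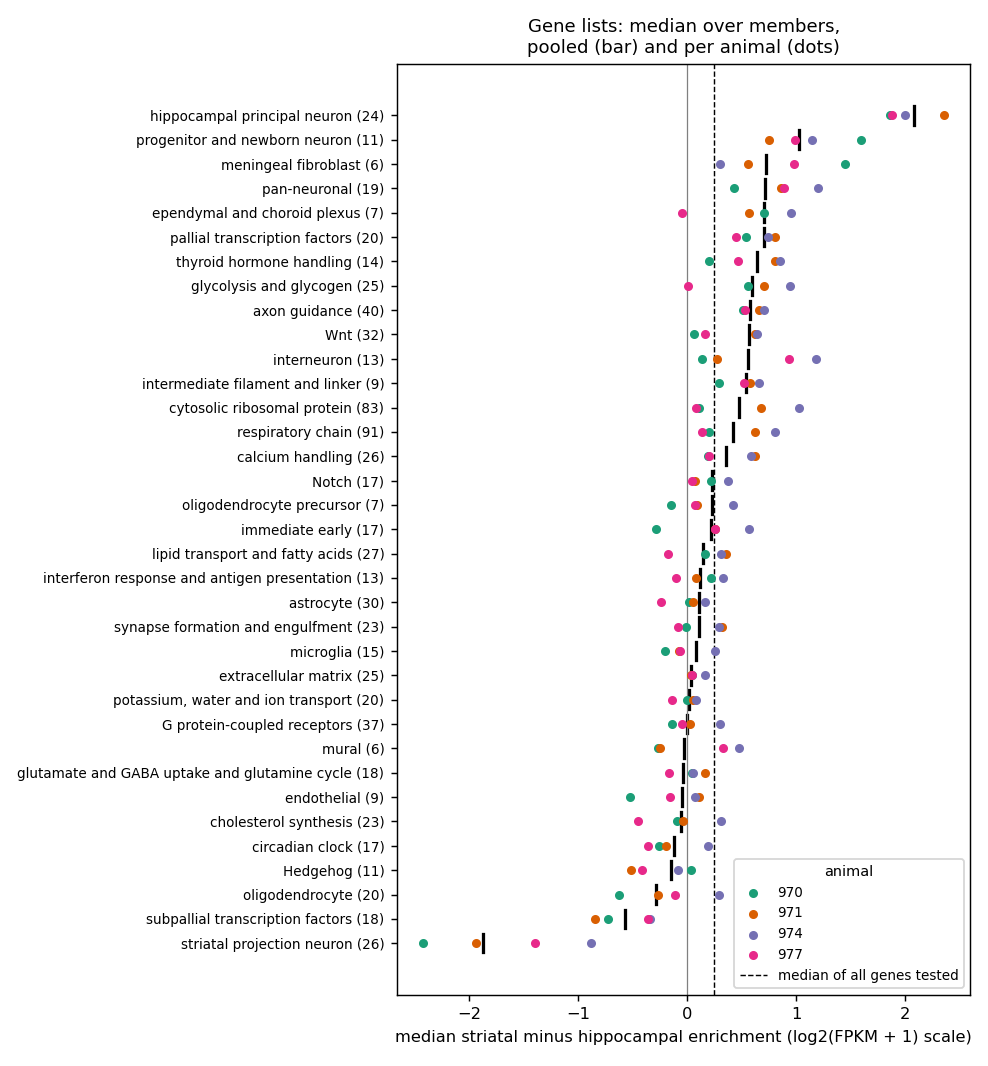
Median striatal minus hippocampal enrichment of 35 gene lists, with the number of members tested in brackets, pooled (bars) and in each of the 4 animals (dots), on the log2(FPKM + 1) scale. Hippocampal principal neuron markers had the highest median, 2.08, and striatal projection neuron markers the lowest, -1.88, while astrocyte markers lay near 0; the dashed line is the median of all genes, 0.25.

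Transcription factors that pattern the forebrain were called in both directions, beside 11.9% of all genes toward striatum and 4.57% toward hippocampus. Of 18 tested factors of the subpallium, the territory that forms the striatum, 2 rose (Dlx1 and Dlx2) and 8 fell. Dlx1 and Dlx2 are also counted among the progenitor markers, and Isl1, Ebf1 and Meis2, which fell, among the striatal projection neuron markers. Of the 8, 7 held without each animal in turn. Isl1 and Lhx8, both among the 8, were listed at 0 in every hippocampal library, so their calls rest on striatum alone. With 1 FPKM required in 8 libraries, 1 rose and 3 fell of 12. Zic1, a zinc finger factor, averaged 4.58 FPKM in striatal input and 0.227 in striatal IP, and 2.10 and 2.77 in hippocampus (regional difference -2.49 ± 0.27, adjusted p = 1.47e-05). Foxp2, a forkhead factor, gave -2.41 ± 0.28. Over the 18 tested subpallial factors the median IP arm was 1.27 and the median input arm 1.58. Of 20 tested factors of the pallium, the territory that forms the hippocampus, 11 rose and 2 fell. Of these, 5 and 1 held without each animal in turn. With scaling 7 rose and 3 fell, and with 1 FPKM required in 8 libraries 8 rose and 0 fell of 15. Lhx9, which rose, and Dmrt3, which fell, were listed at 0 in every striatal library, so their calls rest on hippocampus alone. Fezf2, a zinc finger factor of projection neurons, averaged 39.5 FPKM in hippocampal input and 35.0 in hippocampal IP, and 2.69 and 12.5 in striatum (regional difference 2.06 ± 0.22, adjusted p = 1.07e-05). Nfix, a nuclear factor I protein, gave 1.89 ± 0.22. Over the 20 tested pallial factors the median IP arm was -0.50 and the median input arm -1.19, so a rise there need not mean a higher level in striatal IP.

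Genes of the Wnt pathway and of axon guidance were called in both directions, beside 11.9% of all genes toward striatum and 4.57% toward hippocampus. Of 32 Wnt pathway genes 13 rose and 3 fell (8 and 3 with scaling; 7 and 2 of 22 where 8 libraries had to reach 1 FPKM; 7 and 3 without animals 971 and 974), and 7 and 1 held without each animal in turn. Besides Dkk3 and Rspo3, the members included Rspo2, a second R-spondin (1.84 ± 0.14), and Frzb, a secreted Wnt antagonist (2.11 ± 0.20). Of 40 axon guidance genes 16 rose and 3 fell (8 and 1 without animals 971 and 974), and 7 and 1 held without each animal in turn. Nrp1, a semaphorin receptor, averaged 22.4 FPKM in hippocampal input and 10.8 in hippocampal IP, and 3.30 and 7.68 in striatum (regional difference 1.99 ± 0.20, adjusted p = 6.17e-06). Its partner Plxna1 gave 2.27 ± 0.28. The ligand gene Sema3a fell, at -1.24 ± 0.18, but was not called at a pseudocount of 0.1 (-1.40, adjusted p = 0.0751) or without animals 971 and 974 (adjusted p = 0.0537). Medians were 0.57 for the Wnt list and 0.58 for the guidance list, beside 0.25 over all genes. With 1 FPKM required in 8 libraries the Wnt median was 0.00682, which lay -0.23 from the median of all genes tested there.

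Receptors, channels and calcium genes also split, beside 11.9% of all genes that rose and 4.57% that fell. Of 37 tested G protein-coupled receptor genes 7 rose and 8 fell, and 4 and 5 held without each animal in turn. The adrenergic receptor gene Adra1d gave 2.73 ± 0.29 and the substance P receptor gene Tacr1 -2.44 ± 0.23. Adra1d was listed at 0 in every striatal IP, so its positive value is not enrichment by precipitation in striatum. Of 20 genes of potassium, water and ion transport 3 rose and 4 fell, and 1 and 3 held. Kcnk2, a background potassium channel, was enriched in hippocampus, from 3.53 to 7.18 FPKM, and depleted in striatum, from 13.2 to 4.03 (regional difference -2.37 ± 0.20, adjusted p = 1.52e-06). The related channel Kcnk10 gave 1.85 ± 0.28, in the other direction. Of 26 calcium genes 6 rose and 1 fell, Plcb1, a phospholipase (-1.82 ± 0.28), and 3 and 1 held; with the pan-neuronal share subtracted 5 rose and 4 fell. Orai3, a store-operated channel, rose with 1.91 ± 0.28. Medians were -0.00144 for receptors, 0.01 for transport and 0.35 for calcium genes, and with scaling the transport list had 1 call toward striatum and 4 toward hippocampus.

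Other groups are given beside 16.4% of all genes called with all animals. Their medians lay between -0.15 (Hedgehog) and 0.54 (filaments and linkers). Of the 13470 genes tested, 524 toward striatum and 212 toward hippocampus were called with all animals and without each in turn. Such calls, higher and lower, numbered 2 and 1 for synapse formation and engulfment, 2 and 0 for matrix and 0 and 2 for Hedgehog. They numbered 1 or 0 in each other list of this paragraph. Gpc4, a glypican released by astrocytes that acts on excitatory synapses, gave 2.85 ± 0.26 from 23.1 and 20.7 FPKM in hippocampal input and IP and 1.16 and 12.8 in striatal input and IP, and was 1 of 4 calls among 23 genes of synapse formation and engulfment, with Bdnf higher and Itgav and Megf10 lower. In the extracellular matrix list Spon1 (1.92 ± 0.23) and Hapln4 (1.91 ± 0.26) rose and Nid1 fell, of 25, and with the animal as a block 5 rose and 0 fell (Nid1: adjusted p = 0.0528). In the Hedgehog list the transcription factor Gli3 (-1.11 ± 0.16), the antagonist Hhip (-1.78 ± 0.23) and the ligand Shh fell and Cdon rose, of 11. The Notch ligand Jag1 fell (-1.13 ± 0.19; adjusted p = 0.0742 without animals 971 and 974), and Maml2 and Dner rose, of 17, both lost with scaling. Jun, an immediate early gene, rose with 2.02 ± 0.21, as did Nr4a2 and Nr4a3, of 17, and with the pan-neuronal share subtracted 3 rose and 4 fell. Of 17 clock genes, Bhlhe41 (-1.19 ± 0.17; adjusted p = 0.0692 without animals 971 and 974), Npas2, Cry1 and Hlf fell and Bhlhe40 rose; Cry1 was not called with the animal as a block (adjusted p = 0.0552). Of 18 genes of glutamate and GABA handling, Gabbr2 rose and Slc38a1 and Glud1 fell. Of 27 lipid genes Echdc2 rose and Scd1 fell, of 9 filament and linker genes Synm rose and Vim fell, and of 13 interferon genes Ifi27 and Ifit3 rose. Without animal 971 the calls of Megf10, Shh, Cdon, Nr4a2, Nr4a3, Bhlhe40, Slc38a1, Glud1 and Scd1 were lost, with adjusted p of 0.0566 to 0.254. Without animal 970 those of Maml2, Dner, Npas2, Hlf and Ifit3 were lost (0.0770 to 0.132), without animal 977 those of Cry1, Synm and Vim (0.0516 to 0.185), and without animal 974 that of Nid1 (0.219). Each gene is given here under the animal whose removal gave its highest adjusted p. All of them except Shh, Nr4a3, Bhlhe40 and Synm were also lost without at least 1 other animal. Cry1, Vim and Nid1 were lost whichever animal was left out. At a pseudocount of 0.1 those of Shh, Nr4a2, Nr4a3, Synm, Vim and Nid1 were lost (0.0591 to 0.376), and with scaling that of Glud1 (0.0507). Without animals 971 and 974 together Echdc2 (0.105) and Ifi27 (0.0550) were also not called.

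Metabolic and ribosomal lists gave few calls that stood with fewer animals. Of all genes tested, 11.9% rose and 4.57% fell. Of 25 glycolysis genes 8 rose and 0 fell, 4 rose with scaling, and 0 held without each animal in turn, while their summed striatal input level ran from 704 to 1673 FPKM. Their median was 0.60, and by animal 0.56, 0.70, 0.94 and 0.01. Of 91 respiratory chain genes 7 rose and 0 fell, 2 with scaling, 3 with the pan-neuronal share subtracted, and 1 held without each animal in turn. Of 83 ribosomal protein genes 1 rose, Rps15a, with an adjusted p of 0.0787 without animal 971. The ribosomal list had a median of 0.48, and by animal 0.11, 0.68, 1.03 and 0.08, in the order of animals given above. Of 23 cholesterol synthesis genes 2 fell, Ebp with an adjusted p of 0.151 without animal 971 and Msmo1 with 0.139 without animal 970, and with scaling 5 fell. Ebp was also lost without animal 970, and Msmo1 whichever animal was left out.

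Among thyroid hormone genes Crym alone held without each animal in turn. Of 14 tested, 4 were higher, Crym among them, and 2 were lower, beside 11.9% and 4.57% of all genes tested. The call of Hr (higher, a nuclear corepressor) was lost without animal 971, as were those of Thrb, a receptor gene, and Klf9, a hormone target, both lower, with adjusted p of 0.124 to 0.261. Hr was also lost without animal 970 or 977, Klf9 without animal 970, and Thrb whichever animal was left out. With scaling 3 rose and 0 fell. The list's median was 0.64, and Crym, at 5.94, lay apart from its other members.

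Markers of other cells of the tissue were called in several lists, beside 16.4% of all genes tested. Of 20 oligodendrocyte markers Enpp6 and Apod were lower, of 15 microglial markers P2ry12, of 9 endothelial markers Itm2a and of 6 mural markers none. These 4 calls were lost without animal 971, with adjusted p of 0.116 to 0.276, and also without animal 970. With the pan-neuronal share subtracted 8 oligodendrocyte markers fell and 0 rose, with a median of -0.95 against -0.29 without subtraction. The median input arm of that list was 0.98. Summed microglial levels were 22.6 to 31.0 FPKM in hippocampal IP and 26.9 to 47.4 in striatal IP, and summed oligodendrocyte levels 78.4 to 100.1 and 90.4 to 179. Among 6 meningeal fibroblast markers the matrix gene Dcn (2.18 ± 0.21) and Col1a2 were higher. Of 7 ependymal and choroid plexus markers Kl (1.18 ± 0.25) was higher and Clic6 lower. The call of Clic6 was lost without animal 971 (adjusted p = 0.148) and also without animal 970. At a pseudocount of 0.1 Dcn gave 0.91 (adjusted p = 0.232) and Kl 0.79 (adjusted p = 0.372), and Kl was not called without animals 971 and 974 (adjusted p = 0.0753). Of 6 red blood cell genes 1 was tested and not called. The part of these cells in the results was not tested.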

How the data were processed

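RNA of input and HA IP libraries from 2 brain regions of 4 mice was analysed as 16 tables. Per the submitters' processing notes, bcl2fastq 2.17, STAR and HTSeq were used with mm10. The kit named in the labels' protocols, Nugen Ovation RNA-Seq System V2, does not mark strand. The deposited values are FPKM made by the authors, 1 table per library, with 24060 labels each, of which 27 had become dates and 98.3% were found in GENCODE vM21. Values were used as deposited, as log2(FPKM + 1), a scale that understates changes of low genes. A gene entered when 4 or more libraries had 1 FPKM or more (13470 genes). All libraries entered 1 limma 3.58.1 fit in R 4.3.3 with a mean for each of the 4 groups, leaving 12 residual degrees of freedom, a trended and robust variance, and Benjamini-Hochberg adjustment over all genes, with calls at adjusted p under 0.05. No batch is given in the labels. Figures were drawn with matplotlib 3.10.9.

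Depth was estimated from the steps between FPKM values and GENCODE exon lengths and differed 5.46-fold between libraries. The animal number pairs the libraries because each animal gave all 4. After group means were removed, same-animal correlations across genes were 0.28 to 0.49 between the IPs, 0.05 to 0.31 between the inputs, 0.09 to 0.17 between hippocampal input and IP, and -0.01 to 0.08 between striatal input and IP. The animal entered as a block in an alternative.

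The named genes were Aldh1l1, Gfap, Crym and Rpl22. Added to these were the 8 of largest size per direction and larger arm, among genes called as deposited, with scaling and with the block, with 1 sign in 4 animals and 5 FPKM or more in a group's mean. Up to 4 members of each of 36 lists by smallest p and genes with parallel arms were also taken. Some genes stand in several lists and are counted in each. Members of lists with few calls, and Slit2, were named after their values were seen. Some genes that met the rule are not reported here. The comparison and the lists were chosen with earlier results of these data known.

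On simulated counts for 13470 genes at a dispersion of 0.05, the regional difference was called for 26.9% of genes changed 2-fold, 97% of those changed 4-fold and 98.5% of those changed 8-fold. Of the calls on those counts, 3.27% were unchanged genes. Whether these rates hold for the deposited values was not tested. Alternatives were the block, scaling by a trimmed mean (30% of ratios and 5% of levels trimmed), pseudocounts of 0.1 and 0.5, no filter on low values, 1 FPKM in 8 libraries, no variance trend, no striatal inputs of animals 971 and 974, subtraction of the pan-neuronal share of input from each IP, and leaving out animals. Leaving out animals 971 and 974 together, and scaling with the block, were added after the data were seen.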

Additional observations from a re-analysis of the deposited data

Results flagged for a closer look

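The regional difference in enrichment is itself a test of whether the effect of precipitation differs between regions, and its counts, 1599 genes toward striatum and 616 toward hippocampus, are listed here for that reason. For 24 of the genes named above, IP lay above input in all 4 animals in one region and below it in all 4 in the other. Toward striatum these were Crym with 5.94, Gabbr2 with 3.71, Pcdh20 with 3.55, Rspo3 with 3.24, Mdga1 with 3.14, Scel with 2.71, Plxna1 with 2.27, Frzb with 2.11, Fezf2 with 2.06, Jun with 2.02, Nrp1 with 1.99, Dlx2 with 1.99, Spon1 with 1.92, Orai3 with 1.91, Kcnk10 with 1.85 and Slit2 with 1.16. Toward hippocampus they were Ppp1r1b with -3.83, Gucy1a3 with -3.02, Pde7b with -2.96, Kcnk2 with -2.37, Cald1 with -2.28, Bgn with -1.91, Olig2 with -1.69 and Bhlhe41 with -1.19. These values are differences of enrichment on the log2(FPKM + 1) scale.

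Single animals stood apart for 3 of the 81 genes checked, where chance flags about 1 in 20. Animal 970 had 4.50 for Mir218-1, above the other animals. Animal 974 had -0.81 for P2ry12 and animal 977 had 1.45 for Frzb, each the value nearest 0 of its gene.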

How the results depend on the processing

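With the animal as a block, which uses the pairing of libraries, 1713 genes were called toward striatum and 665 toward hippocampus, and it changed no call of the 81 genes checked; on the 4 per-animal differences alone there were 1813 and 549. The main counts were 1599 and 616. With scaling they were 1126 and 715, of which 1080 and 575 were among the main calls, and with scaling and the block 1282 and 814. At a pseudocount of 0.1 there were 1045 and 448. Without the striatal inputs of animals 971 and 974 there were 1301 and 655, of which 1126 and 453 were among the main calls. The median over all genes tested there was 0.12, against 0.25 in the main fit. Subtraction of the pan-neuronal share gave 1490 and 1056. Leaving out 1 animal gave 647 to 1266 and 246 to 599, and leaving out animals 971 and 974 gave 501 and 246. Between the IPs, the main count of 1446 became 2306 without the striatal inputs of animals 971 and 974, 841 with the subtraction, 670 to 1136 without 1 animal and 535 without animals 971 and 974. Between the inputs, the main count of 4870 became 2767 to 4599 without 1 animal and 2650 without animals 971 and 974. Fewer samples enter each fit that leaves animals out. The cause of the shifts was not tested. Of the 81 genes, all kept their call with scaling and 72 with a pseudocount of 0.1, and no called gene among them changed sign. For genes named by size, calls with scaling and with the block were required by the selection. List members were taken by smallest p. Calls kept among the 81 genes with scaling or with the block are thus no test of stability. Among other named list members, the block ended the calls of Nid1 and Cry1, and scaling those of Glud1, Maml2, Dner, Enpp6, Klf9 and Thrb. Depth limits genes under about 1 FPKM, above all in the striatal inputs, where the lowest estimated depth was 4.14 (units of 1e6 fragments).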
